A study of Mus musculus with 103 samples.

Results

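Aortic arches of wild-type mice dosed weekly for 8 weeks with a sclerostin antibody were compared with those of vehicle-dosed mice of the same age. The comparison rests on 14 RNA-seq libraries, 9 from Scl-Ab mice and 5 from vehicle mice, of a study whose other groups hold 89 more, and they were chosen by their genotype, treatment and day labels (WT, day57). All 14 mice were ovariectomized C57BL/6 females of wild-type genotype, aged 17 to 18 weeks, and each library came from 1 animal. They had eaten a diet with 42% of calories from fat since the age of 5 to 6 weeks, had lost their ovaries at 7 to 8 weeks and had received the first dose at 9 to 10 weeks. Scl-Ab was r13C7, a romosozumab engineered with rat frameworks and constant regions, given under the skin at 10 mg/kg. Vehicle was a sodium acetate buffer with sucrose and polysorbate. Up to 5 animals of 1 dosing group shared a cage, so cage and treatment cannot be told apart. The arch was taken after whole-body perfusion, flushed and scraped free of adventitial fat with a swab. Used beside them were 6 Scl-Ab and 8 vehicle wild-type libraries of week 3 (day22, age 12 to 13 weeks), 8 and 10 of week 16 (day113, 25 to 26 weeks), and 10 and 10 libraries of ApoE knockout females of week 8. Those mice came from the same supplier and had the same diet, surgery and weekly dose.

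Sclerostin is secreted mainly by osteocytes and also by vascular smooth muscle, and binds the Wnt co-receptors LRP5 and LRP6 with LRP4 as a helper. Its binding blocks canonical Wnt signalling, so an antibody against it frees the receptors and raises bone formation. In the artery wall, Wnt signals, bone-type transcription programmes, mineral inhibitors such as matrix Gla protein, and the elastic fibres laid down by smooth muscle are the parts in which an effect of such an antibody has been looked for.

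The deposited values are in FPKQ, an fpkm-type unit per gene symbol that the labels do not define, so depth in reads is unknown and no counting error can be given. Column sums of the 14 libraries ran from 504295 to 609508, and 12405 to 12798 genes reached 1 FPKQ. Relative depth, read from the smallest values, ran from 0.933 to 1.13, and each library had a median correlation with its own group of 0.967 to 0.982. The labelled tissue matched its markers: all 15 smooth muscle genes of the list were measured, and Acta2, smooth muscle actin, reached 8995, 8434, 8431, 5357 and 8201 FPKQ in the vehicle libraries and ran from 5580.0 to 9837 with a median of 8752 in the Scl-Ab libraries. In pieces of whole tissue, fewer cells of a type and less RNA per cell cannot be told apart.

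No gene passed the test. Of 12873 genes tested in limma with adjustment over all of them, 0 had an adjusted p under 0.05 (0%), and 1386 had an unadjusted p under 0.05 (10.8%), of which 796 were higher (6.18%) and 590 lower (4.58%) with Scl-Ab. The smallest adjusted p, 0.0654, was shared by 11 genes. The median log2 change of all genes was 0.01, the median SE was 0.11, and for 84.1% of genes the 95% interval lay inside a 1.5-fold change either way. At least a 1.5-fold difference of means on the log2(FPKQ + 1) scale was seen for 169 genes (1.31%). The count of 0 depended on the libraries and on the model: 59 genes passed without Scl-Ab animal 5, 43 without vehicle animal 3, 79 with the run of animal numbers as a term and 159 with scores of fat, muscle, heart and thymus lists as covariates.

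Sost, which encodes sclerostin itself (chr11:101962458-101967015, GRCm38), was well expressed, with 426, 373, 573, 462 and 575 FPKQ in the vehicle libraries and values from 359 to 555 with a median of 445 under Scl-Ab. The groups overlapped over most of their range. The log2 change was -0.11 ± 0.24, with a 95% interval of -0.59 to 0.38. Lrp4 had a log2 change of 0.07 ± 0.10, Lrp5 of 0.06 ± 0.12 and Lrp6 of 0.00 ± 0.10, and the intervals of these 3 receptors all lay between -0.20 and 0.30. Sostdc1, a relative of Sost, stayed under 1 FPKQ in all 14 libraries.

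Of the 8 Wnt target genes tested, 0 passed, 3 were higher and 5 lower (51.6% and 48.4% of all genes tested), and the median log2 change was -0.13. Axin2, the feedback inhibitor used as a general readout of canonical Wnt signalling, was at 1.42, 1.75, 1.38, 1.63 and 1.3 FPKQ with vehicle and ran from 1.13 to 2.44 with a median of 1.78 with Scl-Ab. The first 4 Scl-Ab animals held the 4 highest values the sixth lay just above the vehicle range and the other 4 inside or below it, and the log2 change was 0.17 ± 0.16 (95% interval -0.14 to 0.48). Nkd1, another feedback inhibitor, had a log2 change of 0.22 ± 0.20, and its relative Nkd2 one of -0.26 ± 0.12. Ccnd1, the cyclin D1 gene that drives entry into the cell cycle, had the smallest p of the list (unadjusted p = 0.00279, adjusted p = 0.196), with 4.48, 9.09, 4.48, 29.6 and 4.91 FPKQ with vehicle against values from 3.93 to 5.34 with a median of 4.67. Its log2 change of -0.65 ± 0.21 came with 1 high vehicle animal, the fourth. The second also lay above all Scl-Ab animals, and the other 3 lay among them. Lef1 and Bglap did not reach the filter of 1 FPKQ in 5 libraries, nor did Runx2, Tnfsf11 and Il1b.

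**Figure D1:**
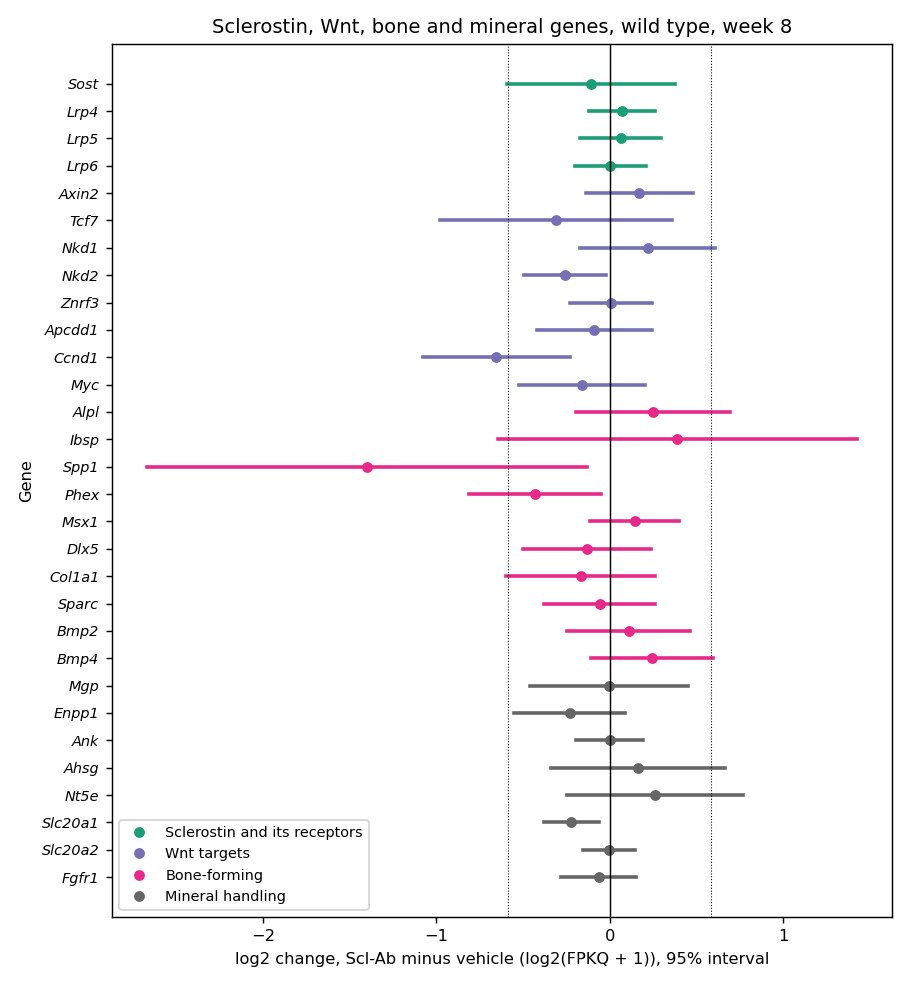
Log2 change with Scl-Ab (x axis, log2(FPKQ + 1) scale) of sclerostin, its receptors, Wnt targets, bone-forming genes and genes that handle or restrain mineral (y axis); points are group differences of 9 Scl-Ab and 5 vehicle libraries and bars their 95% intervals. Dotted lines mark 1.5-fold; Sost sits at -0.11, and the widest interval, that of Spp1, runs from -2.67 to -0.13.

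Among 10 bone-forming genes tested, 5 were higher and 5 lower, with a median log2 change of 0.03 and 0 past the test. Alpl, the phosphatase that removes the mineral inhibitor pyrophosphate, had a log2 change of 0.25 ± 0.22 (95% interval -0.19 to 0.69). Spp1, the osteopontin gene of bone cells and macrophages, was at 1.59, 13.5, 2.89, 177 and 6.08 FPKQ with vehicle and ran from 1.55 to 6.55 with a median of 2.91 with Scl-Ab. The fourth vehicle animal stood far above the other 13 animals, which overlapped. Phex, an endopeptidase of mineralizing cells, was at 4.29, 4.18, 4.23, 6.26 and 4.67 FPKQ with vehicle and ran from 2.23 to 4.02 with a median of 3.19 with Scl-Ab. All 9 Scl-Ab values lay below all 5 vehicle values, as for 15 of the genes tested (0.117%). Its log2 change of -0.43 ± 0.19 did not pass the test (adjusted p = 0.387). The 8 genes that handle or restrain mineral had a median log2 change of 0.00. Mgp, matrix Gla protein, was at 6038, 7920.3, 7236, 16141 and 6345 FPKQ with vehicle and ran from 6441 to 9644 with a median of 8306 with Scl-Ab, again with the fourth vehicle animal apart. Its log2 change was 0.00 ± 0.23. Slc20a1, a phosphate importer, was slightly lower (-0.22 ± 0.08, unadjusted p = 0.00631, adjusted p = 0.251).

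Of the inflammatory genes, Cd68, a macrophage lysosomal protein, had a log2 change of -0.19 ± 0.26 (95% interval -0.71 to 0.33), Vcam1, a leukocyte adhesion receptor, of -0.39 ± 0.27 (-0.93 to 0.15) and Ccl2, a monocyte chemoattractant, of -0.03 ± 0.42 (-0.87 to 0.80). All 20 macrophage markers were lower with Scl-Ab, with a median of -0.19, and 0 of them had even an unadjusted p under 0.05. Their summed level was 1126 FPKQ in the fourth vehicle animal and ran from 367 to 529 in the other 4, against 430.0 to 627 in the Scl-Ab animals. Tnfrsf11b, osteoprotegerin, which blocks osteoclast formation, had a log2 change of -0.30 ± 0.31, with 6.71, 8.37, 9.78, 44.5 and 7.02 FPKQ with vehicle and values from 4.66 to 17.02 with a median of 9.37 with Scl-Ab. Apoe, apolipoprotein E, had a log2 change of -0.08 ± 0.19.

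The genes of smallest p were small in effect. Khk, ketohexokinase, the first enzyme of fructose breakdown (chr5:30921431-30931248), was at 4.41, 5.36, 5.59, 4.91 and 5.72 FPKQ with vehicle and ran from 6.25 to 10 with a median of 7.72 with Scl-Ab. All 9 Scl-Ab animals lay above all 5 vehicle animals, which 22 genes did (0.171%). The log2 change was 0.52 ± 0.12 (95% interval 0.28 to 0.75, adjusted p = 0.0654). Acy1, an enzyme that frees amino acids from their acetylated form, was at 3.81, 4.63, 3.71, 4.04 and 4.46 FPKQ with vehicle and ran from 4.92 to 7.64 with a median of 6.4, also without overlap, with a log2 change of 0.44 ± 0.10. Gtf3a, the transcription factor of 5S ribosomal RNA genes, had no overlap either (0.36 ± 0.09). Rere, a nuclear receptor co-regulator (0.41 ± 0.10), and Rgma, a glycolipid-anchored BMP co-receptor and axon guidance molecule (0.48 ± 0.11), overlapped slightly and shared the adjusted p of 0.0654. Cep19, a centrosome protein (0.31 ± 0.08), and Ccdc69 (0.61 ± 0.16) were also among the 8 higher genes.

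Lower by the same rule were Heatr1, a factor of ribosomal RNA transcription and processing (-0.28 ± 0.06), Ephb2, an ephrin receptor kinase (-0.56 ± 0.13), Cdh11, the cadherin of mesenchymal cells, and Emp1, an epithelial membrane protein, all with an adjusted p of 0.0654. Emp1 was at 72.4, 73.2, 57.6, 151 and 102.05 FPKQ with vehicle and ran from 33.4 to 87.1 with a median of 42.2 with Scl-Ab. Only Scl-Ab animals 5 and 9 reached the vehicle range, and the log2 change was -0.86 ± 0.20. Cdh11 was at 3.22, 5.71, 3.02, 11.4 and 4.08 FPKQ with vehicle and ran from 1.82 to 4.43 with a median of 2.41, with a log2 change of -0.73 ± 0.17. The fifth Scl-Ab animal was the sole one above the lowest vehicle value. Rftn1, a lipid raft protein (-0.75 ± 0.18), Nipsnap3b (-0.54 ± 0.13), Rnft1 (-0.33 ± 0.08) and Ubxn4, a protein of the degradation pathway of the endoplasmic reticulum (-0.20 ± 0.05), followed with adjusted p-values of 0.0732 to 0.111. In all, 37 genes had groups that did not overlap (0.287%), and 22 of them were higher with Scl-Ab. Others of that kind, named here after their values were seen, were Aldh2, the mitochondrial aldehyde dehydrogenase (113.7, 140.0, 143, 138 and 136 FPKQ against values from 145 to 182 with a median of 155), Grhpr, which reduces glyoxylate, Sirt6, a nuclear deacylase, and, lower, Anpep, aminopeptidase N.

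The Scl-Ab group was not uniform, although single genes were not more variable in it than in vehicle: the median SD of log2(FPKQ + 1) was 0.17 inside Scl-Ab and 0.18 inside vehicle, and 44.3% of genes had the larger SD inside Scl-Ab. The first 2 principal components of the 14 libraries held 21.8% and 19.9% of the variance. On the first, Scl-Ab animals 1 to 4 lay between -20.8 and -12.5 and Scl-Ab animals 5 to 9 between 6.98 and 23.7, with no overlap. Vehicle animals ran from -12.7 to 15.2 on it. On the second, vehicle animals 4 and 5 stood apart at 24.7 and 30.5, and the other 12 libraries lay between -17.9 and 7.66. These divisions follow the animal numbers in the labels. Vehicle animals 1 to 3 carry the numbers 1560 to 1562 and Scl-Ab animals 1 to 4 the numbers 3560 to 3563. Vehicle animals 4 and 5 and Scl-Ab animals 5 to 9 carry higher ones, in blocks with last digits 574 to 576 (vehicle 4 and Scl-Ab 5 to 7) and 589 to 590 (vehicle 5 and Scl-Ab 8 and 9). With 1 vehicle animal in each, these blocks were pooled as the higher numbers. The labels do not say what the numbers stand for, so day of necropsy, time of day, cage and sequencing batch cannot be told apart.

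**Figure D2:**
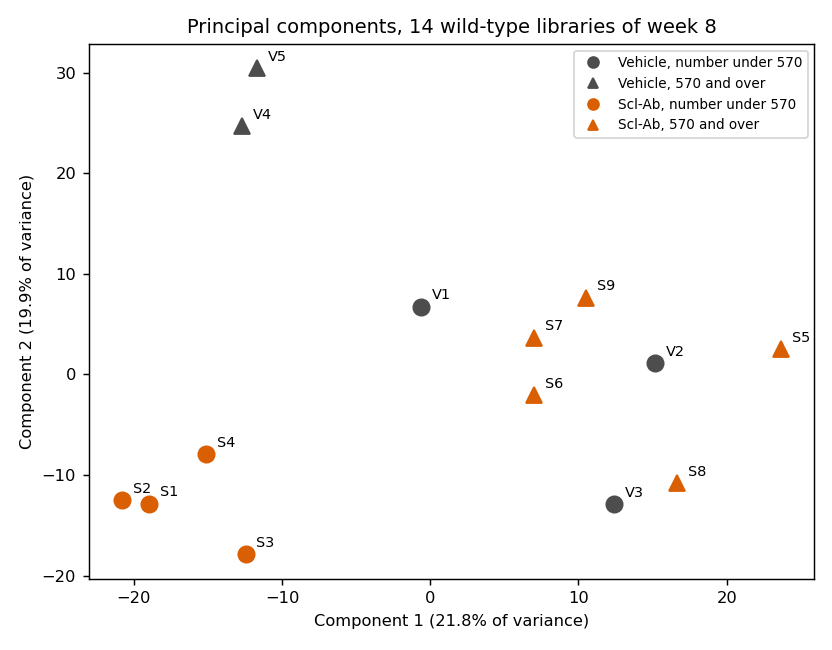
First (x) and second (y) principal component of log2(FPKQ + 1) of the 14 libraries, vehicle (V, grey) and Scl-Ab (S, orange), circles for animal numbers with last digits under 570 and triangles for 570 and over. Scl-Ab animals 1 to 4 lie at the left, between -20.8 and -12.5, and vehicle animals 4 and 5 at the top.

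Within the run of numbers under 570 (3 vehicle and 4 Scl-Ab animals), 325 genes passed (2.52%), of which 210 fell (1.63%) and the others rose (0.893%). Within the numbers of 570 and over (2 vehicle and 5 Scl-Ab animals), 165 passed (1.28%), of which 56 fell (0.435%) and the others rose (0.847%). The difference between both Scl-Ab changes was tested as a contrast of its own and passed for 235 genes (1.83%), with 64 more positive (0.497%) and 171 more negative (1.33%) in the lower numbers. The calls in each run had 1 gene in common with the same direction and 3 with the opposite one. Single animals carried many of these calls: the count of 325 ran from 27 to 346 when 1 animal was left out, with 27 without vehicle animal 2 and 45 without vehicle animal 1. With the first 2 components of the clock genes as covariates, the count in the lower numbers was 0 and the count for the difference was 4. These components were built from the clock lists, some of whose genes were themselves called in the lower numbers. What lowered the counts was not tested. Fat markers stood differently in each run: 14 of 15 white adipocyte genes were higher with Scl-Ab in the lower numbers (50.3% of all genes; median 0.62) and 14 of 15 lower in the higher numbers, where 54.8% of all genes were higher (-1.34), with 0 past the test in either. Medians of opposite sign in the runs were seen for 22 of the 41 gene lists. With scores of white and brown fat, skeletal muscle, heart and thymus lists as covariates, the counts were 487 in each run and 355 for the difference. The components of these same libraries had shown the division at 570, and the adjusted p-values within and between runs do not allow for that. The genes named in the next paragraphs were chosen after their values in the runs were seen, or are members of the lists.

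Some core clock genes separated the first 4 Scl-Ab animals from the rest. In the clock, ARNTL (BMAL1) pairs with CLOCK or NPAS2 to switch on Per, Cry and the output factors Dbp, Tef and Hlf, and PER and CRY proteins in turn block that pair. Arntl (chr7:113207465-113314126) was at 6.83, 12.2 and 3.81 FPKQ in vehicle animals 1 to 3 and at 0.904, 1.87, 0.434 and 1.14 in Scl-Ab animals 1 to 4. It was at 7.15 and 6.46 in vehicle animals 4 and 5 and at 10.8, 6.49, 4.8, 5.1 and 7.72 in Scl-Ab animals 5 to 9. The first 4 Scl-Ab animals lay below all other animals, and the other 5 lay inside the vehicle range. Arntl fell in the lower numbers (-1.97 ± 0.34, adjusted p = 0.000349), also with each of the 7 animals left out in turn, and not in the higher (-0.02 ± 0.37, adjusted p = 0.99). The difference was -1.95 ± 0.50 (adjusted p = 0.024).

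Per3, a period gene (chr4:151003652-151044665), was at 7.4, 5.75 and 14.5 FPKQ in vehicle animals 1 to 3 and 25.9, 27.1, 33.9 and 26.1 in Scl-Ab animals 1 to 4. It was at 8.04 and 5.4 in vehicle animals 4 and 5 and 4.34, 9.79, 11.4, 12.7 and 7.35 in Scl-Ab animals 5 to 9. The first 4 Scl-Ab animals lay above all others. Per3 rose in the lower numbers (1.60 ± 0.31, adjusted p = 0.00147), but its difference between runs did not pass (1.27 ± 0.46, adjusted p = 0.135). Cry1, a cryptochrome that represses ARNTL and CLOCK, was at 2.98, 2.19 and 3.68 FPKQ in vehicle animals 1 to 3 and 6.72, 8.65, 8.47 and 7.59 in Scl-Ab animals 1 to 4, and at 2.82 and 4.86 and 3.49, 2.53, 3.56, 2.76 and 3.25 in the higher numbers. It rose in the lower numbers (1.18 ± 0.23, adjusted p = 0.00147), and the difference passed (1.39 ± 0.34, adjusted p = 0.0206). Of 16 core clock genes tested, 2 fell (Arntl and Clock) and 2 rose (Per3 and Cry1) in the lower numbers (1.63% and 0.893% of all genes), and 0 passed in the higher numbers (1.28% of all genes). Of 8 clock output genes, Hlf rose in the lower numbers (0.98 ± 0.27) and Nfil3, the repressor that competes with the Hlf family, fell in them (-1.22 ± 0.33). Dbp was at 69.1, 50.6, 116.9, 70.4 and 32.9 FPKQ with vehicle and ran from 52.6 to 178 with a median of 118.6 with Scl-Ab, a log2 change of 0.88 ± 0.35 over all 14 animals that did not pass (adjusted p = 0.316). Without vehicle animal 2 the calls of Per3 and Cry1 in the lower numbers were lost (adjusted p = 0.0650 and 0.0542), as were those of Clock, Hlf and Nfil3, which held in 3, 2 and 2 of the 7 fits with 1 animal left out. The difference between runs was called for Arntl in 8 of 14 and for Cry1 in 12 of 14 fits with 1 animal left out.

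Promoters of genes that moved in opposite directions in the first 4 Scl-Ab animals are shown because they hold letters that match elements known to bind clock factors or the glucocorticoid receptor. Each is a RefSeq promoter of GRCm38.p6, from 250 bases before the gene's start to 50 after it, 5′ to 3′ on the gene's strand. Capitals mark each match to one of the 4 motifs searched. Per3 (chr4:151044616-151044915, minus strand) holds 2 copies of the D-box TTANGTAA, bound by DBP, TEF, HLF and, as repressor, NFIL3. Cry1 (chr10:85185005-85185304, minus strand) holds 1 E-box CACGTG, the site of ARNTL and CLOCK. Arntl (chr7:113207261-113207560, plus strand, the second of its 2 starts) holds 1 ROR element, AANT followed by AGGTCA, bound by ROR activators and REV-ERB repressors. Fkbp5 (chr17:28486100-28486399, minus strand) holds 1 E-box, and Sgk1 (chr10:21993640-21993939, plus strand, the fifth of 6 starts) 1 E-box and, after it, 1 glucocorticoid response element, GNACA and TGTNC with 3 bases between them.
Per3: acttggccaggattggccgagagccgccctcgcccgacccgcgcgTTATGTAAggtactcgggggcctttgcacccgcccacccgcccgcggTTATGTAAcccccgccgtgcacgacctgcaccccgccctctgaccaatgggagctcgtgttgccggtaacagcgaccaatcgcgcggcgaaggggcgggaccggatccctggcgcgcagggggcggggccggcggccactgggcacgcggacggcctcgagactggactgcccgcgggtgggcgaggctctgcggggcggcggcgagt
Cry1: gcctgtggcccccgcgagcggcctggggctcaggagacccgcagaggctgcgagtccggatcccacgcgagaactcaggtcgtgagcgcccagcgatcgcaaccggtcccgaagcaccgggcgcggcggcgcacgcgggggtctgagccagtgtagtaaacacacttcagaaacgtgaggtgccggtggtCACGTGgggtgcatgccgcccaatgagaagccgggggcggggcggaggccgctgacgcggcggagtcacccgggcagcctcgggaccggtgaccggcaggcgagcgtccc
Arntl: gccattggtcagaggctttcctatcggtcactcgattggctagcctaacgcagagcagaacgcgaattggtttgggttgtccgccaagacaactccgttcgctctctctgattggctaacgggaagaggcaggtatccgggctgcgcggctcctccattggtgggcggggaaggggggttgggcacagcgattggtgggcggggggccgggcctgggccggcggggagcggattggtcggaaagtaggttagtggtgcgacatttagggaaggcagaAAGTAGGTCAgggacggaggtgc
Fkbp5: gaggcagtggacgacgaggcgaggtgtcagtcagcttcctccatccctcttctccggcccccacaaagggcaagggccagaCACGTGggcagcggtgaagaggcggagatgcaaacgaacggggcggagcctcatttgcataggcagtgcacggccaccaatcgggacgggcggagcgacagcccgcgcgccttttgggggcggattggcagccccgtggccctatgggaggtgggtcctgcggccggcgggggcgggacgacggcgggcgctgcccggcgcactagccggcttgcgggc
Sgk1: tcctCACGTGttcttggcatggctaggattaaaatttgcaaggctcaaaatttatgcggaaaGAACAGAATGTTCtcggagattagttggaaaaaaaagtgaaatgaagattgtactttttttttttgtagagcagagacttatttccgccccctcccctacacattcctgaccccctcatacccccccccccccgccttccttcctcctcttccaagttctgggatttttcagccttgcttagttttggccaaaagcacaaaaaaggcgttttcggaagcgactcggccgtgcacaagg
Both strands were searched, and a match of a palindrome to both strands counts once. Among all 32851 promoters of the table, 7.15% hold the E-box, 2.32% the D-box, 0.475% the glucocorticoid response element and 0.219% the ROR element. Counted per gene, with a match in any of its promoters, 8.09% of 27025 genes hold the E-box and 0.537% the glucocorticoid response element. Of 12 core clock genes in the table, 3 hold an E-box in at least 1 of their promoters, 19 in all, and of 14 genes of the glucocorticoid list, with 24 promoters, 4 hold an E-box and 2 (Sgk1 and Mt1) a glucocorticoid response element. A match describes the letters in this window and is not a test of binding.

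Genes induced by glucocorticoid hormone, which the adrenal releases in a daily rhythm and under stress, were low in the first 4 Scl-Ab animals. Fkbp5, the receptor's co-chaperone, was at 158, 219.8 and 139.9 FPKQ in vehicle animals 1 to 3 and 16.5, 35.7, 17.99 and 88.6 in Scl-Ab animals 1 to 4. It was at 113.1 and 52.1 in vehicle animals 4 and 5 and 183, 180.5, 178, 206 and 187 in Scl-Ab animals 5 to 9. The first 3 Scl-Ab animals lay below all vehicle animals, the fourth below all but vehicle animal 5, and the last 5 above both vehicle animals of their run. Fkbp5 fell in the lower numbers (-2.40 ± 0.62, adjusted p = 0.0194), had a log2 change of 1.27 ± 0.68 in the higher (adjusted p = 0.382), and the difference of -3.67 ± 0.93 passed (adjusted p = 0.022). Over all 14 animals the change was -0.54 ± 0.51 (adjusted p = 0.788).

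Errfi1, which encodes a feedback inhibitor of the EGF receptor, was at 208, 287 and 128 FPKQ in vehicle animals 1 to 3 and 21.4, 30.6, 30.9 and 54.5 in Scl-Ab animals 1 to 4. It was at 126 and 214 and 370.3, 159.6, 106.1, 134 and 221 in the higher numbers, where the groups overlapped. It fell in the lower numbers (-2.57 ± 0.52, adjusted p = 0.00225), and the difference between runs was -2.69 ± 0.78 (adjusted p = 0.0464), a call that held in 4 of 14 fits with 1 animal left out. Of the 16 genes of the list, 8 fell in the lower numbers and 0 rose, against 1.63% of all genes that fell, and the list median was -1.01 there and 0.25 in the higher numbers. The other 6 that fell were Zbtb16, a zinc-finger repressor (-2.08), Tsc22d3, the leucine zipper GILZ (-1.22), the kinase Sgk1 (-0.82), the cell-cycle inhibitor Cdkn1a (-1.90), the mTORC1 inhibitor Ddit4 (-1.95) and the NF-kB inhibitor Nfkbia (-1.21). Over all 14 animals 13 of the 16 were lower, with a median of -0.39 and 0 past the test. Leaving out vehicle animal 2 ended each of these 8 calls, and leaving out vehicle animal 1 or Scl-Ab animal 3 ended those of 6. Zbtb16 and Tsc22d3 were called in 1 of the 7 fits with 1 animal left out, and Errfi1 and Cdkn1a in 6.

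**Figure D3:**
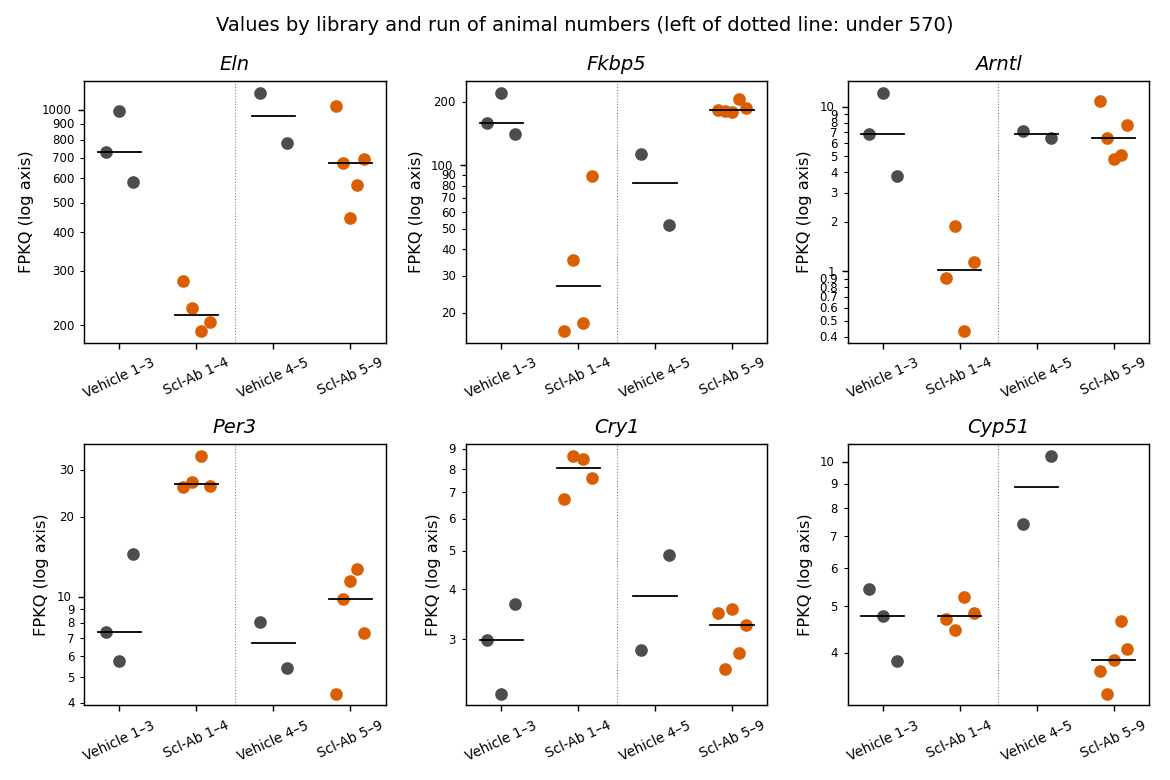
FPKQ (y, log axis) of 6 genes in each library, grouped on the x axis as vehicle 1 to 3, Scl-Ab 1 to 4, vehicle 4 and 5 and Scl-Ab 5 to 9; bars are medians. Scl-Ab 1 to 4 lie below all other animals for Eln and Arntl and above them for Per3 and Cry1, and Scl-Ab 5 to 9 lie below vehicle 4 and 5 for Cyp51.

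Elastic fibre genes were lower in the same 4 animals. Lox, lysyl oxidase, which crosslinks elastin and collagen, was at 71.4, 84.9 and 68.1 FPKQ in vehicle animals 1 to 3 and 28.9, 33.8, 32.04 and 35.6 in Scl-Ab animals 1 to 4, and at 113.9 and 134 and 89.8, 70.9, 58.8, 73.2 and 81.9 in the higher numbers. Neither run overlapped. In the lower numbers Lox fell (-1.17 ± 0.27, adjusted p = 0.00762), as did Eln, elastin (-1.75 ± 0.37, adjusted p = 0.00403) and Fbn1, fibrillin-1 (-0.68 ± 0.19, adjusted p = 0.0329), 3 of the 15 genes of the list, against 1.63% of all genes. In the higher numbers 0 of the 15 passed, with -0.73 ± 0.30 for Lox, -0.52 ± 0.41 for Eln and 0.03 ± 0.21 for Fbn1, and the difference between runs passed for 0 of them. Over all 14 animals 13 of 15 were lower, with a median of -0.26 and 6 lower at an unadjusted p under 0.05 (4.58% of all genes). Fbln5, fibulin-5, which loads elastin onto microfibrils, had a log2 change of -0.40 ± 0.18. Csf1, the macrophage growth factor (-0.70 ± 0.18), and Kremen1, a receptor of the Wnt antagonist DKK1 (-0.47 ± 0.12), also fell in the lower numbers. All 3 elastic fibre calls were lost without vehicle animal 2. With 1 animal left out, Eln was called in 6 of 7 fits, Lox in 5 and Fbn1 in 1, and Csf1 and Kremen1 in 4 each.

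Within the higher numbers several named calls rested on vehicle animal 4. Thbs1, thrombospondin-1, a matrix protein that activates TGF-beta, was at 88.6 and 18.6 FPKQ in vehicle animals 4 and 5, at 6.13, 15.7 and 4.78 in vehicle animals 1 to 3, and ran from 4.8 to 9.11 with a median of 6.15 with Scl-Ab. It fell there (-2.55 ± 0.49, adjusted p = 0.00335), but not without vehicle animal 4. Fst, the activin antagonist follistatin, at 4.29, 5.09, 4.32, 20.6 and 6.27 FPKQ with vehicle and from 2.86 to 4.53 with a median of 4.01 with Scl-Ab, fell as well (-1.31 ± 0.24, adjusted p = 0.00236). So did Ccnd1 (-1.31 ± 0.31), Cdh11 (-1.02 ± 0.25) and Rftn1 (-1.21 ± 0.26), whose calls were likewise lost without vehicle animal 4. Fst was also far higher in vehicle animal 4 than in vehicle animal 5, and its fit without vehicle animal 4 is not reported here. Nkd2 also fell there (-0.64 ± 0.17, adjusted p = 0.0373), a call that held in 3 of 7 fits with 1 animal left out. With Ccnd1 it made 2 of the 8 Wnt target genes, against 0.435% of all genes that fell there. Both of these calls were lost without vehicle animal 4. Among 14 genes of TGF-beta signalling, 10 were lower over all 14 animals, 7 of them at an unadjusted p under 0.05 (4.58% of all genes), and the median was -0.20. Their summed level was 955 FPKQ in vehicle animal 4 and ran from 603 to 794 in the other vehicle animals, against 446 to 634 with Scl-Ab. In the higher numbers 1 of them fell (0.435% of all genes), and in the lower numbers 0 passed (2.52% of all genes).

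Cholesterol genes were high in vehicle animals 4 and 5. Cyp51, the lanosterol demethylase of cholesterol synthesis, was at 5.44, 4.77 and 3.85 FPKQ in vehicle animals 1 to 3 and 4.7, 4.47, 5.24 and 4.86 in Scl-Ab animals 1 to 4. It was at 7.43 and 10.3 in vehicle animals 4 and 5 and 3.67, 3.29, 3.87, 4.65 and 4.09 in Scl-Ab animals 5 to 9. The groups overlapped in the lower numbers and did not in the higher, where Cyp51 fell (-0.996, adjusted p = 0.00335), but not without vehicle animal 5. Its log2 change in the lower numbers was 0.04 ± 0.18, and the difference of 1.04 ± 0.27 passed (adjusted p = 0.0248), also in 10 of 14 fits with 1 animal left out. The call of the difference was lost without vehicle animal 2, 3 or 5 and without Scl-Ab animal 3. Of 15 cholesterol synthesis genes tested, 4 fell in the higher numbers and 0 in the lower (0.435% and 1.63% of all genes). Beside Cyp51 they included squalene epoxidase, Sqle (-0.63), and the sterol oxidase Msmo1 (-0.52), each called in 3 of 7 fits with 1 animal left out. Over all 14 animals 13 were lower, with a median of -0.24 and 0 past the test.

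**Figure D4:**
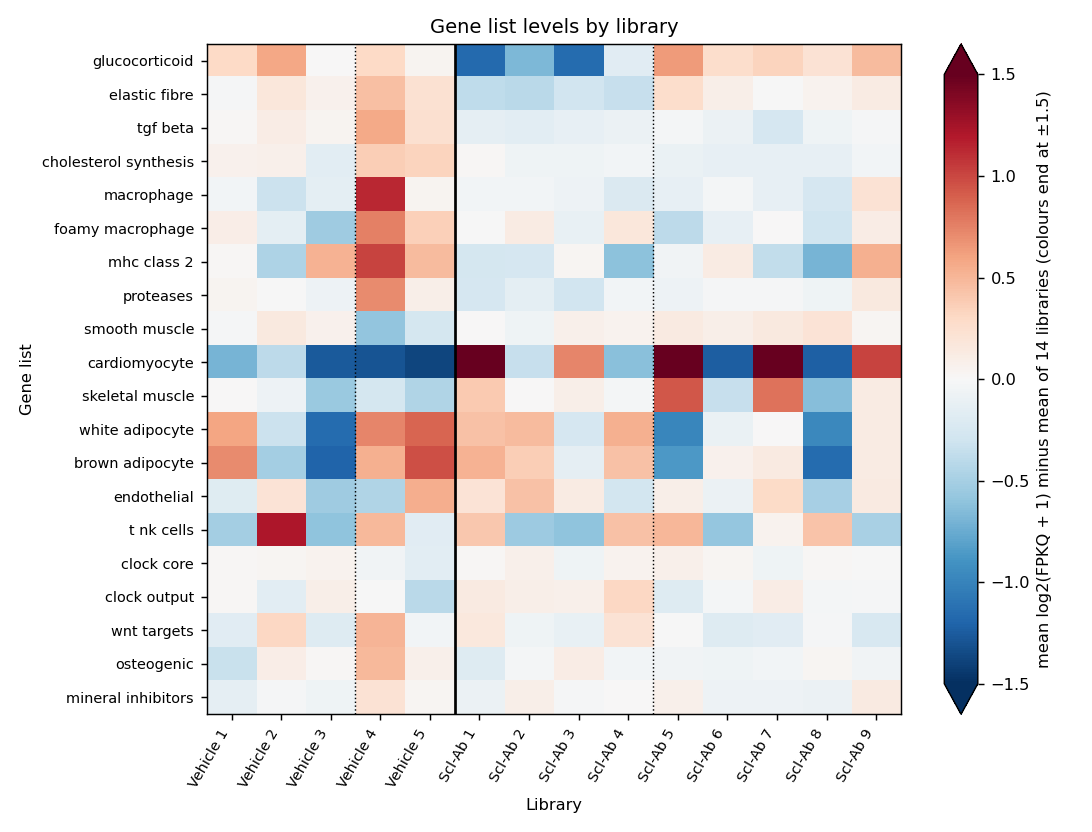
Level of 20 gene lists (y) in each of the 14 libraries (x), as the mean log2(FPKQ + 1) of the list minus its mean over the libraries; red is higher and blue lower. Glucocorticoid and elastic fibre lists are lowest in Scl-Ab 1 to 4, the macrophage list is highest in vehicle 4, and the cardiomyocyte list is high in Scl-Ab 1, 3, 5, 7 and 9.

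Heart muscle genes were the most variable inside the Scl-Ab group. The 8 measured cardiomyocyte markers summed to 28.5 to 85.3 FPKQ in the vehicle animals, and to 212, 61.3, 113.7, 86.03, 479, 28.05, 470.1, 57 and 143 in Scl-Ab animals 1 to 9. Scl-Ab animals 1, 3, 5, 7 and 9 lay well above all vehicle animals, and animal 4 level with the highest of them. Tnnt2, cardiac troponin T, made up much of the vehicle sums, at 32.5, 53.4, 20.01, 77.95 and 17.6 FPKQ. Myl7, the atrial myosin light chain, was at 5.4, 8.82, 1.51, 0.499 and 0 FPKQ with vehicle and ran from 1.62 to 107.1 with a median of 18.3 with Scl-Ab. Nppa, atrial natriuretic peptide, was at 0, 0.156, 0, 0.163 and 0.234 FPKQ with vehicle and reached 24.7 in Scl-Ab animal 7, with 0 in Scl-Ab animals 6 and 8. All 8 were higher on average, with a median log2 change of 1.79, yet 0 had an unadjusted p under 0.05. The part of heart tissue in the other results was not tested. With the cardiomyocyte score as a covariate, an alternative chosen after the data were seen, 140 genes passed, and without Scl-Ab animals 5 and 7 there were 88. White adipocyte genes summed to 426 to 1419 FPKQ with vehicle and 481 to 1163 with Scl-Ab, and Ucp1, the uncoupling protein of brown fat, was at 499, 145, 63.7, 409 and 652 and ran from 57.5 to 409.8 with a median of 265.

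Set beside the other wild-type comparisons, the week 8 changes of the lower numbers went with those of week 3 and the changes of the higher numbers did not. At week 3, 3807 genes passed (29.6%). Of the 325 genes called in the lower numbers of week 8, 268 (82.5%, and 7.04% of the week 3 calls) passed in the same direction at week 3 and 0 in the opposite. Of the 165 called in the higher numbers, 11 (6.67%) passed in the same direction and 20 (12.1%) in the opposite. Across all 12873 genes, which are not independent, the log2 changes of the lower numbers and of week 3 had a Pearson r of 0.68 and a Spearman rho of 0.65, and those of the higher numbers and of week 3 an r of -0.39 and a rho of -0.27. Week 8 and week 3 share no library. Animal numbers of week 3 also lie on both sides of 570, in unlike shares in its Scl-Ab and vehicle groups. Week 3 was not divided by them, and their part in this likeness was not tested. Eln, for one, fell by 1.85 at week 3, and Fkbp5 by 2.44 on the log2 scale. Axin2 rose by 0.73 ± 0.15 at week 3, and its change over the 14 animals of week 8 was 0.17 ± 0.16.

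In ApoE knockout mice of week 8, 307 genes passed (2.38%). Of these, 32.9% were called in the same direction in the lower wild-type numbers (31.1% of those 325) and 0 in the opposite. In the higher numbers 0 were called in the same direction and 4 in the opposite. Arntl fell by 0.95 and Fkbp5 by 1.82 in the knockout, and Cry1 rose by 0.70. Differences between comparisons were tested on all 14 animals of week 8. The Scl-Ab change of wild type differed from that of the knockout for 0 genes (0%; 929, 7.22%, at an unadjusted p under 0.05), from that of week 3 for 0 (0%; 2672, 20.8%) and from that of week 16 for 0 (0%; 430, 3.34%). Without vehicle animal 3 these counts were 4, 35 and 0. The smallest p of the difference from the knockout was that of Tbpl1, a TATA-box-binding protein relative, with 0.17 ± 0.07 in wild type and -0.28 ± 0.06 in the knockout (adjusted p = 0.0897). For the difference from week 3 it was that of Fam102a (-0.21 ± 0.15 in week 8 and 0.75 ± 0.14 in week 3, adjusted p = 0.110). At week 16, 1 gene passed (0.00777%), and the log2 changes of Arntl and Npas2 there were -0.72 and -0.83 and did not pass.

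**Figure D5:**
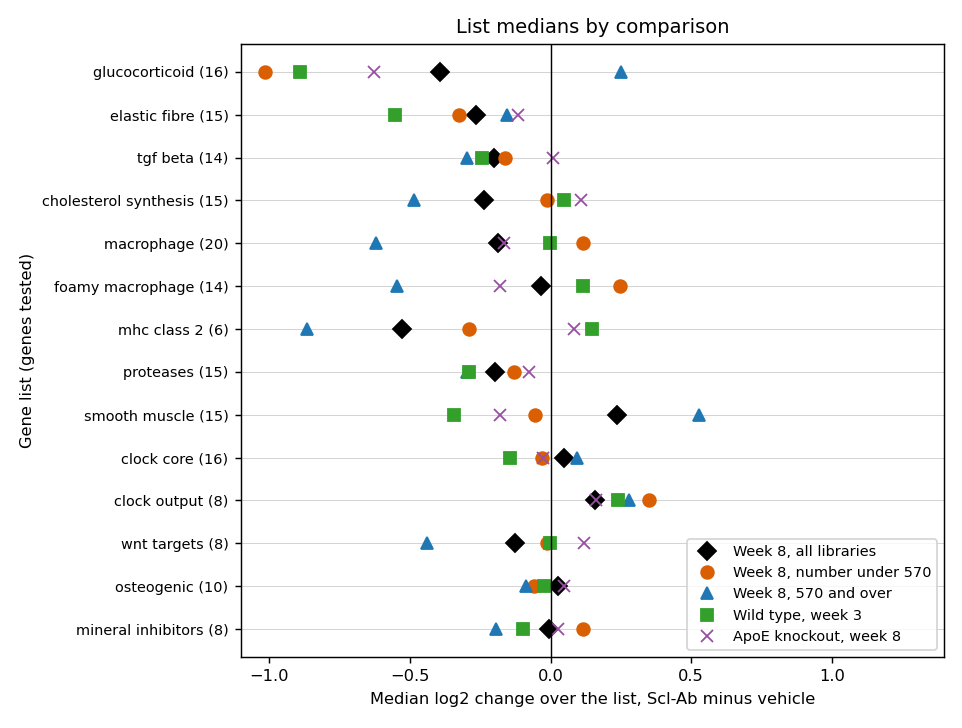
Median log2 change over 14 gene lists (x; lists and genes tested on y) in the whole week 8 comparison, in each run of animal numbers, in wild type at week 3 and in the ApoE knockout at week 8. For the glucocorticoid list the lower numbers (-1.01), week 3 (-0.89) and the knockout (-0.63) lie to the left of 0 and the higher numbers (0.25) to the right.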

How the data were processed

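RNA-seq values of 103 aortic arch libraries, 1 animal each, were used as the authors deposited them, in FPKQ, an fpkm-type unit (column name per the file headers; FPKM-like, not counts). GRCm38 and DESeq2 1.10.1 are named without a role in the submitters' processing notes. The aligner was not given in the sources used here, nor were quantifier and strand setting. Log2(FPKQ + 1) was fitted in limma 3.58.1 (R 4.3.3) with a mean for each of 12 groups, trended robust empirical Bayes and two-sided Benjamini-Hochberg adjustment over the 12873 genes with at least 1 FPKQ in at least 5 of the 14 libraries. Fold changes on this scale understate those of low genes. Runs of animal numbers (last 3 digits under 570, or over) were fitted as separate groups. The labels do not assign sequencing batches to libraries. Lists were described by counts and medians. Members and lists were chosen with earlier results of these data known. Named were preset genes of sclerostin, bone, mineral and inflammation, the 8 genes of smallest p in each direction, the 2 of smallest p in each list and the 10 most variable with Scl-Ab; 0 genes qualified as called. Some genes are not reported here. Fits were tested on simulated data. Alternatives changed pseudocount, filter, scaling, samples, weights and covariates. Gene coordinates are those of GRCm38, and promoters are RefSeq's.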

Additional observations from a re-analysis of the deposited data

Results flagged for a closer look

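In 17 of 232 groups of values (the named genes in 2 groups of animals each), 1 animal stood apart from the others of its group, and chance flags about 1 in 20 groups. Vehicle animal 4 accounted for 8 of these. It had the highest vehicle value of Mgp (16141 FPKQ), of Tnfrsf11b (44.5), of Phex (6.26), of the cartilage matrix protein Comp (101.3), of the collagen-binding proteoglycans Lum (373) and Dcn (2497) and of the gelatinase Mmp2 (144). It had the lowest vehicle value of Acta2 (5357).

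Vehicle animal 5 had the lowest vehicle value of Gtf3a (13.5 FPKQ) and the highest of Rnft1 (21.8) and Ubxn4 (30.0). Vehicle animal 3 had the lowest value of the fat hormone gene Lep (1.08), and vehicle animal 2 the highest of Csrp3 (2.16), a muscle LIM protein. Among Scl-Ab animals, animal 2 was highest for Ccl2 (10.5), animal 5 was highest for Cdh11 (4.43) and for the airway secretory gene Scgb1a1 (56.5), and animal 1 was lowest for Comp (16.7).

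The Scl-Ab change differed between the lower and the higher animal numbers, by a test of the difference in limma, for Fkbp5 (-3.67 on the log2 scale), Errfi1 (-2.69), Arntl (-1.95) and Cyp51 (1.04). With 1 animal left out these calls held in 10, 4, 8 and 10 of 14 fits.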

How the results depend on the processing

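The count of 0 genes became 24 without a filter, 1 with the compared groups alone, 223 with array weights, 79 with the run of animal numbers as a factor, 159 with carried-over tissue scores, and 325 and 165 within the lower and higher numbers. Chosen after the data were seen, blocks of shared animal digits gave 18, leaving out Scl-Ab animals 5 and 7 gave 88, and the cardiomyocyte score as a covariate gave 140. Leaving out 1 animal gave 0 to 59 (43 without vehicle animal 3, 59, 1 and 6 without Scl-Ab animals 5, 7 and 9). With the replicate number as a block, 9 genes passed. The numbers share no stated origin, so a pairing of the animals is not known. Deviations of same-numbered animals correlated at -0.228 to 0.232, and those of animals with shared digits at -0.300 to 0.216. With so few vehicle animals these values cannot decide whether the numbers pair the animals.

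The difference from the knockout (0) became 5 without a filter, 2 with the run factor, 3 with the cardiomyocyte score and 1 with the replicate block, and 0 to 4 with 1 animal left out (4 without vehicle animal 3, 1 without Scl-Ab animal 9). The difference from week 3 (0) became 2499 with array weights and 1668 with the cardiomyocyte score, and 0 to 35 with 1 animal left out (35 without vehicle animal 3, 1 without Scl-Ab animal 2). The difference from week 16 (0) became 2 without a filter and 2 with array weights. It became 1 each with tissue scores, clock components, the cardiomyocyte score, and without vehicle animals 4 and 5, and 0 to 1 with 1 animal left out (1 without vehicle animal 5 or Scl-Ab animal 1 or 3).

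Within the runs the call is given as a percentage of the genes tested. For the lower numbers (2.52%) it was 6.01% with the compared groups alone, 3.85% with week 8 alone, 18.4% with array weights and 0% with clock components (the cause was not tested), and 0.21% to 2.69% with 1 animal left out (0.35% and 0.21% without vehicle animals 1 and 2; 1.56%, 1.23% and 0.886% without Scl-Ab animals 1, 2 and 3). For the higher numbers (1.28%) it was 2.59% without a filter, 0.962% with a filter of 5, 5.89% with the compared groups alone, 4.96% with week 8 alone, 0.194% with array weights, 0.621% with the replicate block, 3.78% with tissue scores and 0.785% with clock components, and 0.528% to 1.34% with 1 animal left out (0.684%, 0.614% and 0.528% without Scl-Ab animals 6, 7 and 8). For the difference between runs (1.83%) it was 1.71% without a filter, 8.91% with the compared groups alone, 6.29% with week 8 alone, 4.83% with array weights, 2.76% with tissue scores and 0.0311% with clock components. With 1 animal left out it ran from 0.225% to 2% (0.816%, 0.225% and 1.08% without vehicle animals 1, 2 and 4; 0.994%, 1.03%, 0.987% and 1.1% without Scl-Ab animals 1, 2, 3 and 5).

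Of 3913 single-gene values under 34 alternatives, 197 newly passed. With 0 genes called in the main comparison, there was no call that could reverse. Uncalled values with the other sign made up 2.94%, of which 54 lay at least 1 SE from the main value. Of 1394 list medians, 36 moved. Depth in reads is unknown.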

Other observations

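Genes of oxidative phosphorylation had log2 changes of opposite sign in the runs of animal numbers. All 22 genes of the list were higher with Scl-Ab in the lower numbers (median log2 change 0.26) and all 22 were lower in the higher numbers (-0.44), with 0 past the test in limma in either. Their summed level ran from 2714 to 5574 FPKQ with vehicle and from 3126 to 4692 with Scl-Ab. The brown adipocyte list had medians of 0.81 and -1.15 in the same runs, and its part in the oxidative phosphorylation values was not tested. Of the 41 gene lists, 22 had medians of opposite sign in the runs, both of these among them.

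Interferon-induced genes had 1 call among 16 in the lower numbers, that of Ifit3, an antiviral RNA-binding partner protein, against 0.893% of all genes that rose there. It was at 9.62, 11.1 and 11.5 FPKQ in vehicle animals 1 to 3 and 24.7, 25.2, 43.1 and 24.04 in Scl-Ab animals 1 to 4, and at 15.6 and 17.8 and 10.8, 14.02, 9.67, 12.5 and 9.65 in the higher numbers. It rose in the lower numbers (1.33 ± 0.35, adjusted p = 0.0216 in limma), and the difference between runs was 1.86 ± 0.52 (adjusted p = 0.0401). With 1 animal left out, the call in the lower numbers held in 4 of 7 fits and that of the difference in 3 of 14. Reads of Ifit3 and its near-identical neighbour Ifit3b can be split between them.

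All 6 measured MHC class II genes, which present antigen to helper T cells, were lower with Scl-Ab, with a median of -0.53 over all 14 animals and 0 past the test. H2-Aa was at 97.1, 66.7, 145, 201 and 119.7 FPKQ with vehicle and ran from 51.2 to 136 with a median of 74.9 with Scl-Ab, and the groups overlapped (log2 change -0.61 ± 0.33, adjusted p = 0.498 in limma).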
